A study of Mus musculus with 4 samples.

Results

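Mitochondrial ribosomal proteins are the proteins of the ribosome inside mitochondria, and 75 genes for them were measured in mouse B cells with and without a Mef2c knockout. The genes were all those whose name on the array is Mrpl or Mrps followed by a number, 46 of the large and 29 of the small subunit by that name, out of 28305 gene names. Each was represented by the brightest of its probes, and its 75 probes were chosen from 124. RNA came from freshly isolated B cells of naive mice marked by B220, a form of the membrane phosphatase CD45. The 4 Agilent 1-colour arrays held marrow cells of the strain labelled Mef2c KO, marrow cells of C57BL/6 (WT), spleen cells of Mef2c KO and spleen cells of C57BL/6, with 1 array per group. Mef2c encodes a transcription factor of muscle, brain and B cells. How and in which cells Mef2c was deleted, the age of the mice and how many went into an array were not given in the sources used here.

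Each mitochondrion translates a handful of mRNAs from its own DNA, all for subunits of the respiratory chain or of ATP synthase. The ribosome that does so takes its RNA from mitochondrial DNA and its proteins from genes of the nucleus, whose products are made in the cytosol and imported. Some of these proteins have counterparts in bacterial ribosomes, and others occur only in mitochondria. B cells build up mitochondria and their translation when they are activated.

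A level below is the log2 signal of a probe relative to the 75th percentile of its array, and a difference is a difference of 2 such levels. With 1 array per group, KO minus WT in either tissue has neither a replicate nor a p-value, and precision is limited by having 4 arrays. Repeated spots of a probe on the same array gave a median log2 SD between 0.0639 and 0.0782, an error of spotting alone. The signal at the 75th percentile was 520 on spleen KO and 961 to 1008 on the other arrays. The brightest Mef2c probe read 2.13 on marrow WT, 2.45 on marrow KO, 3.14 on spleen WT and 4.51 on spleen KO, higher on both arrays labelled KO. A second and much dimmer Mef2c probe had a KO minus WT difference of 0.36 in the marrow and -0.61 in the spleen. Since the deleted stretch is not given, neither probe can check the labels, and KO and WT below mean the arrays so labelled. Both marrow arrays shared a slide and a scan and both spleen arrays another, so tissue and slide cannot be told apart. Of 7 B cell markers, all 7 were well above background on every array, among them Cd79b.

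Promoter sequences were compared with those of all genes. Of the 75 genes, 66 had a promoter in the RefSeq table of build GRCm38.p6, which gives 250 bases before and 50 after the start of a gene. Their median GC content was 58.5% against 52.7% over all promoters, and they held a median of 21.5 CG dinucleotides against 7. The motif of nuclear respiratory factor 1 (NRF1), with any base allowed at the fifth of its 10 positions, stood in 12 of the 66 (18.2%) and in 5.19% of 27025 genes. CCGGAAGT, bound by ETS factors such as GABPA, stood in 12 (18.2%) and in 4.31%. AAGATGGC, the core of the YY1 motif, stood in 11 (16.7%) and in 3.19%. Both strands were searched, and at least 1 of the 3 stood in 32 members (48.5%) and in 11.7% of all genes. A match describes the letters in this window and not a bound site.

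The 4 promoters that follow, with matches in capitals, show these motifs in Mrpl32 and Mrpl3, higher in spleen KO, and in Mrps27, lower there, beside that of Mrps33, the member with the highest spleen difference. In Mrpl32, for a zinc-binding protein of the large subunit, at chr13:14612988-14613287 on the minus strand, the capitals are AAGATGGC on the opposite strand and then the palindromic form of the NRF1 motif. In Mrpl3, for a protein near the peptidyl transferase centre, at chr9:105053018-105053317 on the plus strand, they are the ETS motif. In Mrps27, for a small subunit protein with pentatricopeptide repeats, at chr13:99344536-99344835 on the plus strand, they are the ETS motif on the opposite strand and then the YY1 core. Mrps33, for a small subunit protein found only in mitochondria, at chr6:39810887-39811186 on the minus strand, held none of the 3.
Mrpl32: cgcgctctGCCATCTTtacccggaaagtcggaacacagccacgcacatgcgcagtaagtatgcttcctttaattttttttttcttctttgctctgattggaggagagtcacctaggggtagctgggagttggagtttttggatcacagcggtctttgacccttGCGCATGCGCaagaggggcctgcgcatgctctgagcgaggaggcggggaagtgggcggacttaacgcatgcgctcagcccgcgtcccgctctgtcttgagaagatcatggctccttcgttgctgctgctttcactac
Mrpl3: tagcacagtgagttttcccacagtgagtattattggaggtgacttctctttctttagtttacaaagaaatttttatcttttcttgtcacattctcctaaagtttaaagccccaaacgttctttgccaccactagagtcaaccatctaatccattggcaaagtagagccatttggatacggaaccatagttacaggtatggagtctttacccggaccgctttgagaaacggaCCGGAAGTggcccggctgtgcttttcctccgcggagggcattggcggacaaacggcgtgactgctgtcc
Mrps27: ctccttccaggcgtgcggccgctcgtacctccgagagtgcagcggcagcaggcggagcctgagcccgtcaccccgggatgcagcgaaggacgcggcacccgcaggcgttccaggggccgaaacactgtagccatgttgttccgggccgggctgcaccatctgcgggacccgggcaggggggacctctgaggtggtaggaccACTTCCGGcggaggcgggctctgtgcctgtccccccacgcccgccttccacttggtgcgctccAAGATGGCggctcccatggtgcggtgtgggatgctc
Mrps33: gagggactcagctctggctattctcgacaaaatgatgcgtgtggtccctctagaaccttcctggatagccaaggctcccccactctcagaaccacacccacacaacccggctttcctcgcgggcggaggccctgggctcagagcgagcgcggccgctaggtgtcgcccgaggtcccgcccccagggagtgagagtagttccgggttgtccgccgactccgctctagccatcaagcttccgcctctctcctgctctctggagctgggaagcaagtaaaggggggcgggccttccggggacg

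Members with and without these motifs were set side by side in the knockout comparison. In spleen KO minus WT the median difference was 0.83 for the 12 members with the NRF1 motif, 0.89 for the 12 with the ETS motif, 0.35 for the 11 with the YY1 core and 0.93 for the 34 with none. In the marrow these medians were -0.01, 0.15, -0.09 and 0.04. These are descriptions of 1 array per group and were not tested.

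In the bone marrow, members differed little between KO and WT. The rule of a 2-fold difference called 0 of 75, beside 13.3% of all genes measured there (8.35% higher and 4.9% lower). Among the 5515 genes with the highest mean level, to which 64 members belong, the share called was 5.37%. The median difference of members was 0.03 against -0.06 over all genes and 0.03 over the 5515 genes with the highest mean level. Within 1.5-fold of WT were 72 members (96.0%), against 73.7% of all genes and 86.6% of those 5515. Differences ran from -0.70 for Mrpl37 to 0.81 for Mrpl33, which encodes a small protein of the large subunit with a bacterial counterpart. The levels of Mrpl33 were 4.66 on marrow WT, 5.47 on marrow KO, 4.33 on spleen WT and 5.86 on spleen KO. Both KO arrays were thus above both WT arrays for Mrpl33.

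After Mrpl33, the highest marrow differences were 0.50 for Mrpl15, 0.43 for Mrps18c, 0.42 for Mrpl54 and 0.41 for Mrpl3. Mrpl15 and Mrpl3 have bacterial counterparts, and Mrpl54 is a protein of the mitochondrial large subunit. At the other end stood Mrpl37, Mrpl4 at -0.62, Mrps27 at -0.55, Mrpl38 at -0.47 and Mrps18b at -0.41. Of these 5, Mrpl4, Mrps27 and Mrps18b were also the 3 members at least 2-fold lower in spleen KO.

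In the spleen the members spread out and mostly lay higher on the KO array. Of 75, 28 were at least 2-fold higher and 3 at least 2-fold lower (41.3%), beside 34.3% of all genes (19.8% higher and 14.4% lower). The 5515 brightest genes, to which 64 members belong, had 41.6% at least 2-fold apart, so the share of members called was near that of other bright genes. The median difference was 0.84 for members, 0.27 for all genes and 0.69 for the 5515 brightest. Its size depends on the scaling: with quantile normalization the medians were 0.33 for members and 0.25 for all genes, and 13 members were at least 2-fold apart, 10 higher and 3 lower. With scaling by the median of the array they were 1.26 and 0.69, and 52 members were at least 2-fold apart, 50 higher and 2 lower. Before scaling, the median signal of members was 4139 on spleen KO and 4482 on spleen WT.

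**Figure D1:**
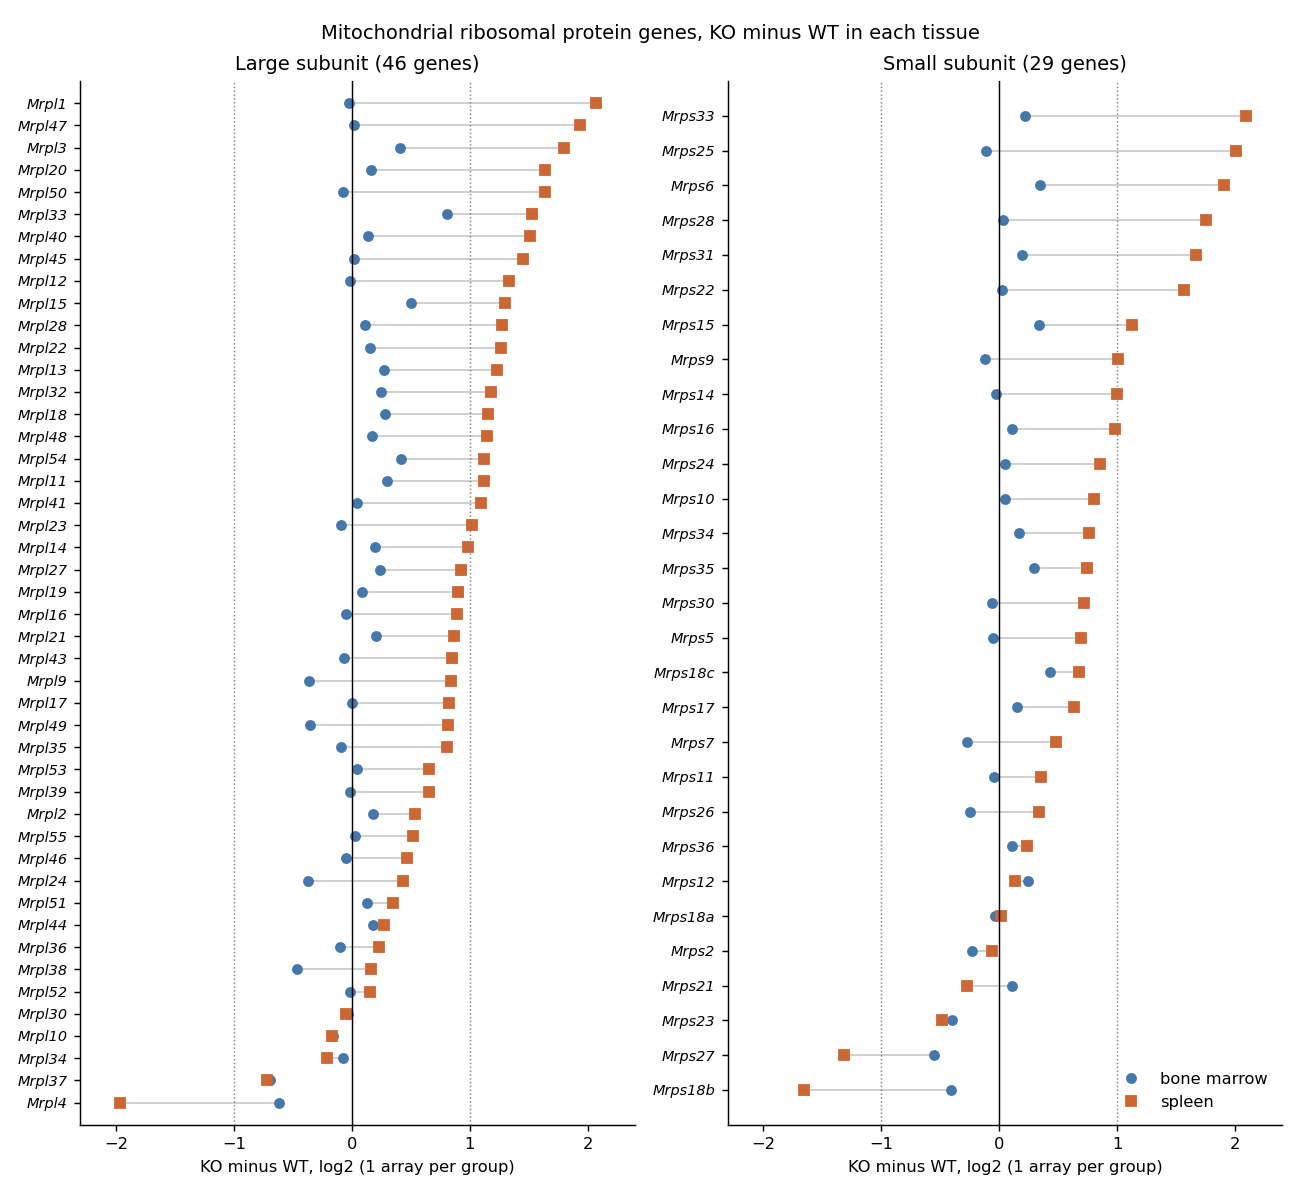
KO minus WT on the log2 scale for each of the 75 genes, in bone marrow (circles) and spleen (squares), with large subunit genes on the left and small subunit genes on the right, 1 array per group. Dotted lines mark a 2-fold difference. All marrow points lie between the dotted lines, and the spleen points run from -1.97 for Mrpl4 to 2.09 for Mrps33.

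Mrps33 had the highest spleen difference. Its levels were 4.72 on marrow WT, 4.93 on marrow KO, 4.29 on spleen WT and 6.39 on spleen KO, a 4.27-fold difference in the spleen. Mrpl1, for the protein of the mobile stalk that releases spent tRNA in bacteria, read 1.11 on marrow WT, 1.08 on marrow KO, 0.31 on spleen WT and 2.38 on spleen KO, a 4.19-fold difference. Spleen KO was the highest of the 4 arrays for both and spleen WT the lowest.

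Mrps25, for a small subunit protein found only in mitochondria, read 0.19 on marrow WT, 0.08 on marrow KO, -0.86 on spleen WT and 1.14 on spleen KO. Mrpl47, related to a bacterial protein at the mouth of the exit tunnel, read 1.43, 1.44, 0.53 and 2.47 in that order. Mrps6, with a bacterial counterpart in the small subunit, read 2.37, 2.72, 1.33 and 3.23. For all 3 genes spleen KO was the highest array and spleen WT the lowest, as for Mrpl1. Their spleen differences were 2.0, 1.93 and 1.90, while their marrow differences were -0.12, 0.01 and 0.35.

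The 3 members at least 2-fold lower in spleen KO were Mrpl4, Mrps18b and Mrps27. Mrpl4, whose bacterial counterpart lines the exit tunnel, read 1.12 on marrow WT, 0.50 on marrow KO, 1.81 on spleen WT and -0.16 on spleen KO, a 3.91-fold lower level in the spleen. Mrps18b read -1.45, -1.86, 0.35 and -1.30 in that order and was 3.15-fold lower in spleen KO. Mrps27 read -0.85, -1.40, -0.77 and -2.08 and was 2.49-fold lower. For all 3 genes spleen WT was the highest array, and the KO array was below WT in each tissue. The next lowest were Mrpl37 at -0.72 and Mrps23 at -0.48, both for proteins found only in mitochondria and both also lower in marrow KO, at -0.70 and -0.40.

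**Figure D2:**
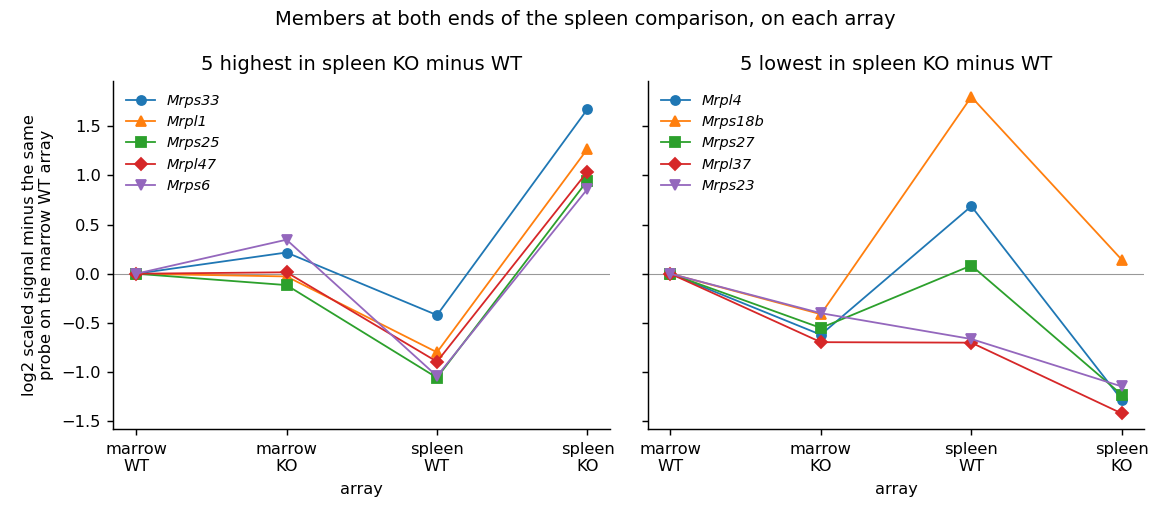
Scaled log2 signal of the 5 members with the highest (left) and the 5 with the lowest (right) spleen difference, on each of the 4 arrays, drawn relative to the same probe on marrow WT, with lines joining points of a gene. The 5 on the left peak on spleen KO and the 5 on the right are lower on KO than on WT in both tissues.

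Some members can be placed at a site of the ribosome, and those that follow are examples and no full list of a site. Around the peptidyl transferase centre, Mrpl3 was 1.80 higher in spleen KO, Mrpl27 0.92, Mrpl16 0.89 and Mrpl2 0.54. Along the exit tunnel and at its mouth, Mrpl22 was 1.26 higher, Mrpl23 1.02, Mrpl24 0.43 and Mrpl47 1.93, while Mrpl4 was at -1.97. In the stalk that recruits translation factors, Mrpl12 was 1.34 higher and Mrpl11 1.12, while Mrpl10, the base that holds Mrpl12, was at -0.17, and at 0.25 with scaling by the median. Mrpl45, which ties the ribosome to the inner membrane, was 1.45 higher. Mrps12, at the decoding site of the small subunit, was at 0.13, and Mrps9, whose bacterial counterpart reaches towards the tRNA, at 1.01.

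By subunit, the median spleen difference was 0.90 over 46 large subunit genes, where 20 passed 2-fold upwards and 1 downwards. It was 0.72 over 29 small subunit genes, where 8 passed upwards and 2 downwards. Genes numbered as bacterial counterparts had 13 of 28 higher in the large and 3 of 16 in the small subunit. Genes with higher numbers, whose proteins are mostly found only in mitochondria, had 7 of 18 and 5 of 13 higher. The difference between these groups was not tested.

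The 3 copies of Mrps18 differed from each other. Mrps18c, the closest to the bacterial protein, read 2.86 on marrow WT, 3.29 on marrow KO, 3.0 on spleen WT and 3.67 on spleen KO. Mrps18a, whose product sits in the large subunit despite its name, read 2.56, 2.53, 2.38 and 2.39 in that order. In spleen KO minus WT, Mrps18c was at 0.67, Mrps18a at 0.01 and Mrps18b at -1.66. Mrps30, also in the large subunit despite its name, was at 0.72. Mrps36, which belongs to the oxoglutarate dehydrogenase complex rather than to the ribosome, was at 0.24.

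Brightness of the probe went with the spleen difference of members, which were cut into 3 sets of 25 by mean level over the 4 arrays. Spleen KO is among these arrays, so a high value there raises both the mean level and the spleen difference. How much of the rise comes from this was not tested. The 25 members with the dimmest probes had a median spleen difference of 0.48, with 7 at least 2-fold higher and all 3 of the lower ones. The middle 25 had a median of 0.85 with 7 higher, and the brightest 25 a median of 1.09 with 14 higher. In the marrow these medians were -0.05, 0.03 and 0.13. All genes were likewise cut into 4 sets by mean level. Their median spleen differences, from the dimmest set to the brightest, were 0.39, -0.004, 0.10 and 0.69. The brightest set of all genes was thus also the highest, but the dimmest was not the lowest. Among members, the highest mean levels belonged to probes of Mrpl43, Mrps33, Mrpl33, Mrpl28 and Mrpl23 and the lowest to those of Mrps27, Mrps18b, Mrps25, Mrpl37 and Mrps2. Probes differ in how well they bind, so this gives no order of RNA amount. By the brightest probe, all 75 members were well above background on all 4 arrays.

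Between tissues, the 2 genotypes gave opposite medians. In WT the median of spleen minus marrow was -0.32 over members and -0.07 over all genes, with 1 member at least 2-fold higher and 8 lower (12.0%), beside 31.2% of all genes (15.5% higher and 15.7% lower). In KO it was 0.43 over members and 0.19 over all genes, with 8 higher and 0 lower (10.7%), beside 29.6% (15.7% higher and 13.9% lower). The 5515 brightest genes, to which 64 members belong, had medians of -0.27 in WT and 0.33 in KO, near those of the members. Of these brightest genes 26.2% were at least 2-fold apart in WT and 29.2% in KO. With quantile normalization the members' medians were -0.09 and 0.25, and 3 and 2 members were called. For 46 of 75 members spleen was below marrow in WT and above it in KO. Each of these comparisons shares its arrays with the knockout comparisons, so they are not separate evidence.

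**Figure D3:**
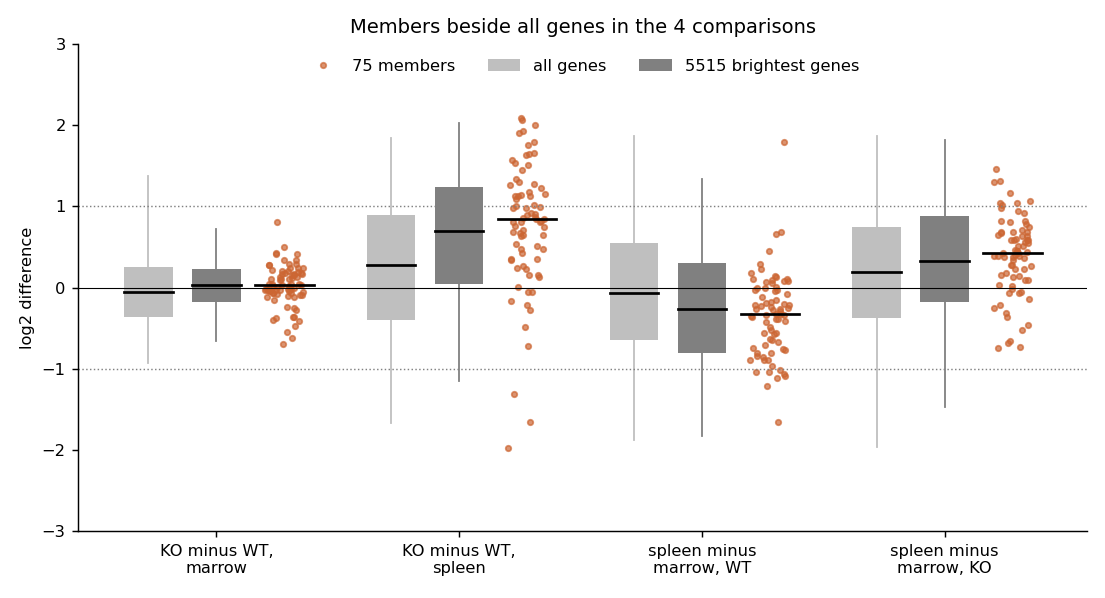
Log2 differences in the 4 comparisons for all genes (light bars), the 5515 brightest genes (dark bars) and the 75 members (points), with bars from the 25th to the 75th percentile, thin lines from the 5th to the 95th, black lines at the medians and dotted lines at 2-fold. In the spleen knockout comparison the members' median of 0.84 stands near the 0.69 of the 5515 brightest genes, and in the marrow the points crowd around 0.03.

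In WT, the lowest members in spleen against marrow were Mrps9 at -1.65, Mrpl28 at -1.21, Mrpl50 at -1.11, Mrpl18 at -1.09 and Mrps25 at -1.06. Mrps9 read 3.20 on marrow WT, 3.08 on marrow KO, 1.55 on spleen WT and 2.56 on spleen KO. Mrpl28, with a bacterial counterpart, read 5.16, 5.27, 3.94 and 5.22 in that order. In KO, spleen minus marrow was -0.52 for Mrps9 and -0.05 for Mrpl28. The 1 member at least 2-fold higher in WT spleen was Mrps18b at 1.80, followed by Mrpl4 at 0.69, Mrpl52 at 0.66, Mrps16 at 0.45 and Mrpl30 at 0.30.

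In KO, the highest members in spleen against marrow were Mrps33 at 1.46, Mrps16 at 1.31, Mrpl1 at 1.30, Mrpl12 at 1.17 and Mrps25 at 1.06. Mrps16, with a bacterial counterpart, read 4.09 on marrow WT, 4.20 on marrow KO, 4.54 on spleen WT and 5.52 on spleen KO, so spleen was above marrow in both genotypes. The lowest were Mrps23 at -0.75, Mrpl37 at -0.72, Mrps27 at -0.68, Mrpl4 at -0.66 and Mrps9 at -0.52.

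A fit over all 4 arrays with genotype and tissue as terms (limma, Benjamini-Hochberg adjustment over 22059 genes) takes the tissues as repeats of 1 genotype difference. It called 0 of 75 members for genotype at an adjusted p under 0.05, beside 0.0453% of all genes, and 1 at an unadjusted p under 0.05, beside 11.3%. That member was Mrpl4, lower in KO in both tissues, with a fitted difference of -1.29 ± 0.57 (SE) and an adjusted p of 0.433 by limma. The next were Mrpl33 at 1.17 ± 0.55 and an adjusted limma p of 0.458, Mrpl3 at 1.1 ± 0.58 and 0.508, Mrps6 at 1.12 ± 0.59 and 0.508, and Mrps33 at 1.16 ± 0.61 and 0.513. The fitted difference was above 0 for 63 members and below 0 for 12. Under the other settings tried the count of members stayed at 0, and the lowest adjusted p of a member ran from 0.108 with normexp to 0.941 without the tissue term. At an unadjusted p under 0.05 the normexp values gave 13 members.

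For tissue the fit called 0 of 75, beside 8.17% of all genes, and 0 at an unadjusted p under 0.05, beside 20.5%. The lowest adjusted limma p was 0.284 for Mrps18b, with a fitted spleen minus marrow difference of 1.18 ± 0.57 (SE). After it came Mrps9 at -1.08 ± 0.56 and an adjusted limma p of 0.327, Mrps16 at 0.88 ± 0.55, Mrpl52 at 0.74 ± 0.54 and Mrpl37 at -0.71 ± 0.54. Under the other settings the lowest adjusted p ran from 0.0866 to 0.418.

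Across the 75 members, differences in the 2 tissues ran in a like order, with Pearson's r of 0.60 and Spearman's rho of 0.49, against 0.34 and 0.39 across 16517 genes above background on all arrays. Genes share their array and are not independent, so these are descriptions. Higher in KO in both tissues were 41 members, lower in both 9, lower in marrow and higher in spleen 24, and the reverse 1, which was Mrps21 at 0.11 and -0.27. The spleen difference exceeded that in the marrow for 65 of 75. These counts of direction depend on the scaling, since with quantile normalization 12 of the spleen and 11 of the marrow differences turned from above to below 0.

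Probes of the same member often disagreed in the spleen. With 2 or more measured probes, 11 of 30 members (36.7%) had probes over 2-fold apart in spleen KO minus WT, against 49.2% of all such genes, and 2 of 31 (6.45%) did in the marrow, against 12.6%. In 22 pairs of probes on the same transcript at least 100 bases apart, the probe nearer the 3′ end had the higher spleen difference in 17 (77.3%), against 70.6% of 3525 such pairs over all genes. Mrps5, for a protein with a bacterial counterpart in the small subunit, had 3 probes on its reference transcript, starting at bases 143, 852 and 1076. They are printed here in that order because the sign of the result depends on which is read. In build mm9, on the plus strand, they span chr2:127416514-127417605, chr2:127426599-127427149 and chr2:127429365-127429424, the first and the second across an intron.
Mrps5 probe at base 143: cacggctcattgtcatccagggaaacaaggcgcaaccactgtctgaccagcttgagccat
Mrps5 probe at base 852: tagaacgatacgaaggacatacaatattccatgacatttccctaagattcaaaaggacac
Mrps5 probe at base 1076: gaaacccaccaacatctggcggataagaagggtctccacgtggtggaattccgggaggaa

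The Mrps5 differences in spleen KO minus WT were -1.83, 0.25 and 0.69 from the first to the last probe, and in the marrow 0.00, -0.03 and -0.05. The brightest probe, used above, is the last. Another Mrps5 probe lies on a different transcript, downstream of the others in the genome at chr2:127432195-127432254, and had -1.43 in the spleen and 0.38 in the marrow. It was marked well above background on all 4 arrays but was dim, at a raw signal of 26.2 on spleen KO against 1586 for the brightest probe. The rise along the gene was not seen at this dim probe. Mrpl44, for a protein related to the ribonuclease III family, had spleen differences of -1.53, -0.49 and 0.27 at bases 373, 765 and 1295. Mrpl3 had 0.53, 1.66 and 1.80 at bases 771, 1246 and 1425. Mrps33 had 1.14 and 2.09 at bases 295 and 498, and 0.76 at base 170 of a second reference transcript. Among their probes on reference transcripts, these 4 genes had the highest spleen difference at the probe nearest the 3′ end. Mrpl1 and Mrps25 ran the other way: Mrpl1 had 2.07 and 0.14 at bases 1037 and 2507, with 1.93 at base 765 of a second reference transcript, and Mrps25 had 2.0 and -1.26 at bases 1398 and 5245. The second Mrps25 probe makes its direction depend on the probe. In each of the genes named here, the reference-transcript probe with the highest spleen difference was also the brightest. On marrow WT the Mrps5 probes read 240, 1929 and 3180 in raw signal, and those of Mrpl1 at bases 1037 and 2507 read 2074 and 196. Place in the transcript and brightness thus cannot be told apart in these genes.

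**Figure D4:**
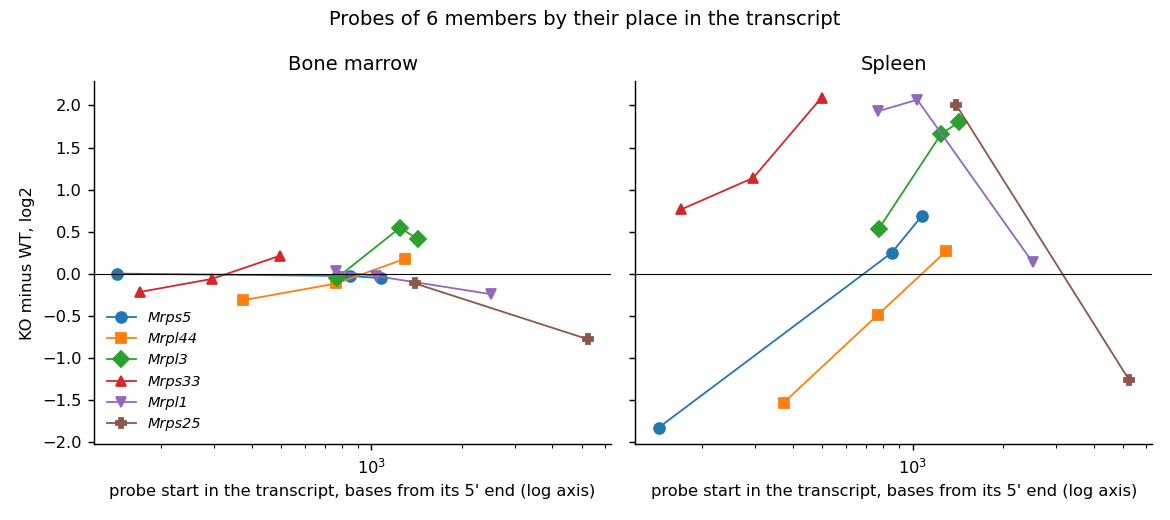
KO minus WT on the log2 scale against the start of the probe in the transcript, in bases from the 5′ end on a log axis, for the 2 or 3 probes of 6 members that lie on a reference transcript and were above background on all arrays, in bone marrow (left) and spleen (right). For Mrps33 and Mrpl1 the first probe is placed on a second reference transcript, and the Mrps5 probe on a different transcript is not drawn. In the spleen the probes of Mrps5 run from -1.83 to 0.69 and those of Mrps25 from 2.0 to -1.26, while the marrow probes of Mrps5 lie at 0.

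With the median over all probes of a gene in place of the brightest probe, Mrpl41 was at -0.29 and Mrps15 at -0.13 in spleen KO minus WT, against 1.09 and 1.12 by the brightest. Another 5 members turned from above to below 0 in the same way. They were Mrpl17 at -0.88, Mrps5 at -0.79, Mrpl27 at -0.61, Mrpl44 at -0.49 and Mrpl52 at -0.22. By the brightest probe they were at 0.82, 0.69, 0.92, 0.27 and 0.15. For Mrpl17, Mrpl27 and Mrpl41 the second probe was not well above background on spleen KO, at raw signals of 15.3, 12.2 and 7.3. Their brightest probes read 2370, 5165 and 12635 there, so these 3 turns rest on a reading near background. Under quantile normalization, cyclic loess, scaling by the median, normexp and the median over probes, 9 of the 28 members higher in spleen KO stayed at least 2-fold higher each time: Mrpl1, Mrpl3, Mrpl47, Mrpl50, Mrps6, Mrps22, Mrps28, Mrps31 and Mrps33. They are named because of that count, after their values were seen. Mrps22, Mrps28 and Mrps31 have 1 probe each, so the median over probes could not change their values. Of the 3 lower members Mrpl4, which has 1 probe, stayed at least 2-fold lower each time. Its value ran from -2.19 to -1.55.

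Several other readings moved with the spleen comparison. The probe of 18S ribosomal RNA, Rn18s, had a difference of -7.71 in the spleen and -2.43 in the marrow. Summed signal of 10 neutrophil markers, in units of the 75th percentile of the array, was 11.1 on spleen WT against 145 on spleen KO, with 9 of 10 well above background on each and Elane below it, and 436 on marrow WT against 1405 on marrow KO. Summed signal of 7 erythroid markers was 24.7 on spleen WT against 167 on spleen KO, and 30.1 against 19.9 in the marrow, with 6 of 7 above background on each array. Summed B cell markers were 600 on spleen WT against 880 on spleen KO, and 370 against 274 in the marrow. Single B cell markers went both ways in the spleen, with 2 of 7 at least 2-fold higher in KO, 3 at least 2-fold lower and a median difference of -0.29. In the marrow 6 of the 7 were lower in KO, 3 of them at least 2-fold, and 1 was higher, with a median difference of -0.94. Summed signal of 4 plasma cell markers was 49.8 on spleen WT against 11.8 on spleen KO, with all 4 below 0, and 4.55 against 2.20 in the marrow. For 8 macrophage markers it was 33.3 against 64.8 in the spleen, with 3 at least 2-fold higher and 1 lower, and 9.33 against 16.5 in the marrow. For 6 T cell markers it was 6.26 against 6.46 in the spleen and 4.02 against 6.42 in the marrow. Single macrophage and T cell markers went both ways. In the marrow 4 macrophage markers were higher in KO and 4 lower, with a median difference of 0.03. Of the T cell markers 3 were higher and 3 lower in each tissue. Their medians were -0.04 in the marrow and 0.05 in the spleen, where they ran from -1.16 to 1.40. The part of any of these in the members' differences was not tested. In bulk RNA, fewer cells of a type and less RNA per cell cannot be told apart.

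Other genes of mitochondrial translation were read from the same arrays, by lists of their roles, and each count stands beside the 19.8% of all genes at least 2-fold higher in spleen KO and the 14.4% lower. Of 5 mitochondrial ribosomal proteins named otherwise, 4 were at least 2-fold higher in spleen KO: Chchd1 at 3.55, Dap3 at 1.37, Ptcd3 at 1.29 and Aurkaip1 at 1.05. Gadd45gip1 was at 0.83, and all 5 lay between -0.18 and 0.47 in the marrow. The array also lists 3 members under older names, now Mrpl42, Mrpl57 and Mrpl58, which were at 0.36, 0.96 and 0.52 in the spleen. Of 15 translation factors 4 were at least 2-fold higher (26.7%, near the share of all genes) and 1 lower, which was Oxa1l at -1.54, the insertase that takes new chains into the inner membrane. Of 22 genes for assembly and rRNA modification 5 were higher (22.7%, also near it), with Mterfd1 at 1.86, Fastkd2 at 1.63 and Mettl15 at 1.60, and 4 lower, with Mpv17l2 at -1.11.

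The 17 mitochondrial aminoacyl-tRNA synthetases had a median spleen difference of 0.24, with 3 past 2-fold in each direction. Lars2, which charges the leucine tRNA, read 90615 in raw signal on marrow WT, 11475 on marrow KO, 277313 on spleen WT and 4680 on spleen KO, a scaled difference of -3.05 in the marrow and -4.99 in the spleen. The highest signal of a member on any array was 44732. The ribosomal RNA probe described above was likewise lower in KO, at -2.43 in the marrow and -7.71 in the spleen. Whether the Lars2 probe reads the synthetase mRNA alone was not tested. Vars2 was at -1.70, Pars2 at -1.37 and Iars2 at 1.26 in the spleen. Of 7 genes for mitochondrial transcription and replication 3 were higher, among them Tfam, which packs mitochondrial DNA, at 1.99, Mterf1b at 1.70 and Tfb2m at 1.34, while Twnk, the helicase, was at -0.63.

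Of 10 regulators of nuclear genes for mitochondria, 2 were at least 2-fold higher in spleen KO (20.0%, near the share of all genes) and 2 lower. The median over the 9 measured on both spleen arrays was 0.07. The higher ones were Myc at 1.41 and Gabpa at 1.22, while Ppargc1b was at -1.64. Gabpb2 was not well above background on spleen KO and was at least 14.4-fold lower there. Further sets were taken by the start of the gene name alone, so they can hold genes of another function with a like name. The 92 genes named as cytosolic ribosomal proteins had a median spleen difference of 0.86, with 38 at least 2-fold higher (41.8%) and 3 lower. The 90 genes named as nuclear respiratory chain or ATP synthase had 0.95, with 44 higher (48.9%) and 4 lower. Among the 5515 brightest genes 35.3% were higher. The members' 0.84 stands beside these, and in spleen minus marrow of KO the members' median of 0.43 stands beside 1.20 and 0.39.

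**Figure D5:**
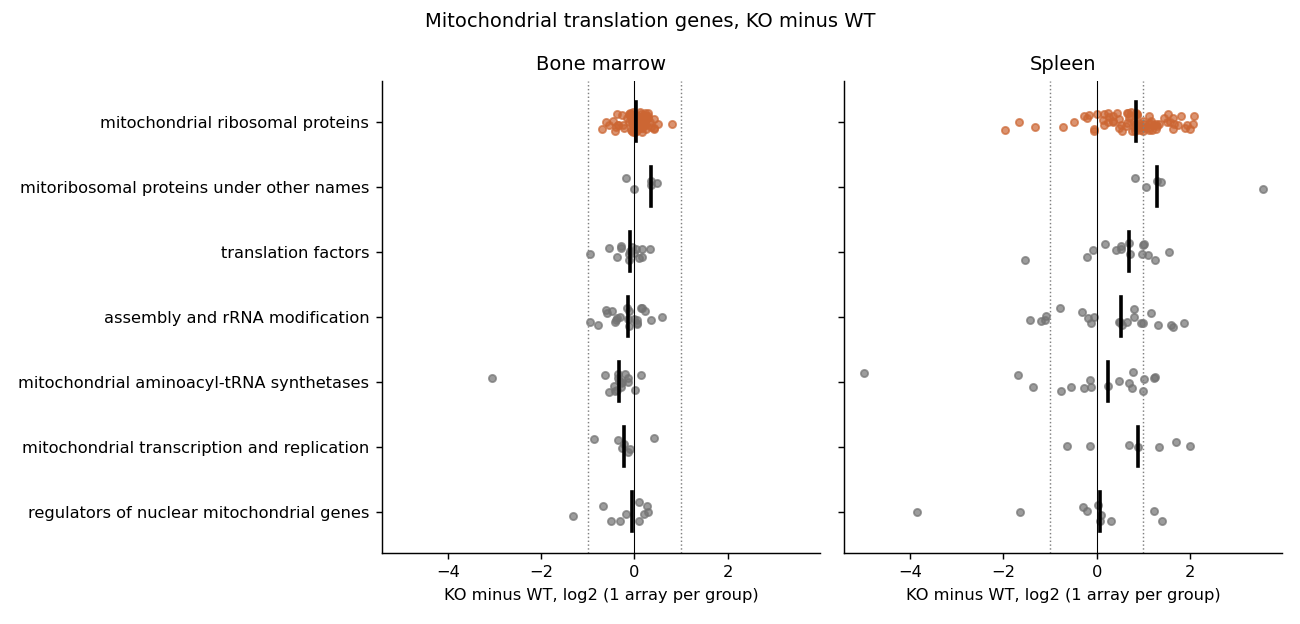
KO minus WT on the log2 scale for the 75 members and 6 lists of genes of mitochondrial translation and its control, in bone marrow (left) and spleen (right), 1 point per gene with black lines at the medians and dotted lines at 2-fold; Gabpb2 in the spleen is drawn at its bound and left out of the median. In the spleen the members' median of 0.84 stands beside 0.24 for the aminoacyl-tRNA synthetases, whose lowest point is Lars2 at -4.99.

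Many members share a promoter region with a neighbour on the opposite strand. Within 1000 bases of the start of 26 of the 66 genes (39.4%) stood the start of a gene running the other way, against 15.8% of all genes. Mrpl46 and Mrps11, both members, start 42 bases apart and were at 0.47 and 0.35 in the spleen and at -0.05 each in the marrow. Mrpl47 and Ndufb5, a subunit of respiratory complex I, start 308 bases apart and were at 1.93 and 1.97. Mrpl32 and the proteasome gene Psma2 were at 1.18 and 1.44, and Mrpl18 and the chaperonin gene Tcp1 at 1.15 and 1.06.

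Other pairs parted. Mrpl40 was at 1.51 and Hira, a histone chaperone gene that starts 113 bases away, at -2.57. Mrpl30 was at -0.05 and Mitd1 at 1.59, and Mrps12 was at 0.13 and Sars2, a synthetase of the same mitochondria, at -0.76. Counting Mrpl46 and Mrps11 once, 23 pairs had the partner measured in the spleen, 13 of them in the same direction. At least 2-fold apart were 9 partners (39.1%), 6 higher and 3 lower, near the 34.3% of all genes. In the marrow 0 partners were at least 2-fold apart. These pairs are named as examples chosen after their values were seen.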

How the data were processed

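Members, gene lists, motifs and tests were chosen with earlier results of these data known. Groups come from the labels, and replicates of a group were not available: 1 array each. Each deposited scanner file gives the linear intensity of the spots of 1 array. The authors read it out with Feature Extraction 10.5.1.1 of Agilent, which subtracted background, and the probes lie on build mm9, per the file headers. The deposited series matrix equalled the processed intensity at all 45018 spots of each array, so it is linear, uncentred and without a direction. Its columns had medians of 82.7 (marrow WT), 85.4 (marrow KO), 93.0 (spleen WT) and 37.9 (spleen KO). Signals were taken to log2 with no pseudocount, the array's 75th percentile was subtracted, control spots and outlier spots were left out, and spots of a probe were averaged. Each gene was read by its brightest probe over the 4 arrays. Of 28305 gene names, 22059 were well above background on at least 1 array, by the mark of the scanner software. A difference where only 1 array was above background is a bound, taken from the dim array's lowest level above background or the probe's own level there, whichever is higher.

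Genes named are the 5 members with the largest difference in each direction of each comparison, the 5 brightest and the 5 dimmest probes, the 5 lowest p of each limma term, the Mrps18 copies, the members with the largest disagreement between probes, and up to 4 genes per list. Other named genes follow their role in the ribosome or were chosen after their values were seen. Tests used limma 3.58.1 with 1 residual degree of freedom. Tested on simulated data, the fit recovered the fold changes put in, but made more false calls than its threshold states. Those changes were alike in both tissues and larger than any difference fitted for a member. Whether the fit finds changes of the members' size was thus not tested. No call of a member rests on the fit. Some marker genes are not reported by name here.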

Additional observations from a re-analysis of the deposited data

Results flagged for a closer look

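Mrps25 had opposite signs on the arrays of the 2 genotypes. Its spleen minus marrow difference was -1.06 in WT and 1.06 in KO. It was picked out because the values of the genotypes lay past 2-fold in opposite directions. The difference between genotypes was not tested, since each value rests on 1 array against 1, and its second probe gave 1.75 in WT.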

How the results depend on the processing

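Replicates could not be paired, because each group had 1 array. The limma fit with tissue as a term compares KO with WT within a slide, since each tissue had a slide of its own, and without 1 array it has no residual degree of freedom. The marrow median of members was -0.044 with quantile normalization, and the marrow count was 1 with the median over probes and 3 at 1.5-fold. In spleen KO minus WT, members called were 13 with quantile normalization, 13 with cyclic loess, 52 with scaling by the median and 54 at 1.5-fold. The medians were 0.33, 0.31 and 1.26 with those 3 scalings, and 0.65 with the median over probes. In WT spleen minus marrow, counts were 3, 3, 15 and 26 in the same order, with medians of -0.090, -0.10, -0.49 and, over probes, -0.23. In KO they were 2, 1, 15 and 33, with 4 after normexp, and medians of 0.25, 0.17 and 0.65. With the median over probes 7 of 75 members turned direction in spleen KO minus WT, of which Mrpl41 (-0.29) and Mrps15 (-0.13) had been past 2-fold, and Mrps25 (0.34) turned in WT spleen minus marrow. In spleen KO minus WT 12, 13, 5 and 1 turned with quantile normalization, cyclic loess, scaling by the median and normexp. The causes were not tested. The lower count after quantile normalization and loess goes with a smaller gap between members and all genes (0.075 and 0.11 against 0.57). The 5 highest and 5 lowest members in spleen KO minus WT shared 4 or 5 genes with each scaling, and 2 and 3 with the median over probes. The limma counts of members were 0 under each setting, while all genes called ran from 0 to 724 for genotype, against 10, and from 0 to 2842 for tissue, against 1802. Alternatives chosen after seeing the data, the probe nearest the 5′ or the 3′ end, gave 28 and 31 members called in spleen KO minus WT, and the brightest members alone 26. By the brightest probe, all members were well above background on all arrays. Normexp took Mrps27 (-0.85), Mrpl23 (0.93) and Mrps9 (0.95) below 2-fold in spleen KO minus WT.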
